A study of Mus musculus with 3 samples.

Results

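Cluster 6 of the deposited clustering is a group of 533 cells out of 12421 that carries the transcripts of brain endothelium, the cells that line blood vessels. Its members were all cells to which the authors' per-cell table gave that cluster number. They came from 4 brains of female C57BL/6 mice aged 2 to 3 months. In 2 brains, metastases had grown for about 2 weeks after E0771 cells, a mouse mammary carcinoma line, were injected into the carotid artery, and 2 brains were naive, with no tumour. RNA and 6 surface antibodies were read in single droplets (CITE-seq, 10x 3' v2 chemistry) after perfusion, papain digestion and a Percoll gradient. Each brain had its own hashing antibody and all were pooled in 1 library, in which no cell barcode was repeated. Metastasis 1 gave 155 cells of the cluster, metastasis 2 gave 125, naive 1 gave 155 and naive 2 gave 98.

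Brain endothelial cells form a barrier: tight junctions seal the gaps between them, and dedicated carriers move glucose, amino acids and lipids across. Along the vessel the same cell type changes its gene programme from artery through capillary to vein, and vessels of the choroid plexus are fenestrated and lack the barrier. Endothelium also answers interferons, and in growing vessels its leading tip cells make apelin and angiopoietin-2.

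The 5 genes that mark the cluster were far above their level in all other cells. Cldn5, the main claudin of the barrier's tight junctions, stood at 1511 and 1654 CPM (UMIs of the gene scaled to a fixed total of UMIs, with no TMM factor) in metastasis 1 and 2, against 3212 and 2590 CPM in naive 1 and 2. In all other cells together Cldn5 was at 1.93 CPM. Ly6c1, a surface protein of mouse endothelium, reached 1288 and 815 CPM with metastases and 2955 and 2054 CPM in naive brains. Flt1, a VEGF receptor, was at 479 and 323 CPM with metastases and at 1099 and 1009 CPM in naive brains. Itm2a, a membrane protein, was at 692 and 363 CPM with metastases and at 2244 and 1581 CPM in naive brains. Igfbp7, a secreted protein of vessel walls, was at 1311 and 3591 CPM with metastases and at 2350 and 1754 CPM in naive brains, so its conditions overlapped (log2 0.25, edgeR adjusted p = 0.711). All 27 genes of the endothelial marker list were detected. These genes helped to form the cluster, so their levels describe it and were not tested against other cells. Cartpt and BC048679 are among the 10 leading genes through naive 2 alone, at 14014 and 9179 CPM. Its 1542 Cartpt UMIs all lay in cells above 4000 UMIs, and 2 cells held at least 100 each.

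The label holds for most of these cells and not for all. Endothelial-marker UMIs made up at least 1% of the UMIs in 402 cells (75.4%), and 131 cells were under that share. The cells below it were 37 and 49 in metastasis 1 and 2, against 22 and 23 in naive 1 and 2. There were 28 cells close to that threshold. Among all members, 23 cells had ependymal markers, those of the ciliated lining of the ventricles, at 0.5% or more of their UMIs: 5 and 17 in metastasis 1 and 2, and 1 and 0 in naive 1 and 2. None of those 23 reached 1% endothelial markers. A further 68 cells up to 4000 UMIs reached neither share: 11 and 18 with metastases and 19 and 20 in naive brains. Mural markers, those of vessel-wall cells, were at 0.5% or more in 29 cells: 4 and 14 with metastases and 7 and 4 in naive brains.

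Depth differed between conditions within the cluster. The median was 949 and 1571 UMIs per cell in metastasis 1 and 2, against 717 and 752.5 in naive 1 and 2. Above 4000 UMIs there were 25 and 29 cells with metastases, against 2 and 3 in naive brains. Those 54 cells held 69.3% of all UMIs of the cluster in the brains with metastases, and the 5 naive ones held 10.7%. Endothelial markers were 6536 CPM in the deep cells with metastases and 27309 CPM in the cells up to 4000 UMIs of the same brains. Tumour epithelial markers, keratins among them, were 499 CPM in the deep cells with metastases and 535 CPM in the 5 deep naive cells. By brain they were 338 and 664 CPM in the deep cells of metastasis 1 and 2. In the same brains they were 435 and 657 CPM in the tumour-like cluster 0, and 424 and 623 CPM in choroid plexus cluster 7. In the cells up to 4000 UMIs they were 124 CPM with metastases and 201 CPM in naive brains. Choroid plexus markers, in those cells, were 3120 and 2987 CPM in metastasis 1 and 2, against 6466 and 7830 CPM in naive 1 and 2. The brain's own hashing antibody gave under 50% of the hashing tags in 1 and 0 cells with metastases, against 7 and 16 cells in naive brains. Scrublet called 13 cells of the cluster doublets, 10 of them above 4000 UMIs. The part of these markers in the differences below was not tested. Counts of called genes are therefore given for all cells, for cells up to 4000 UMIs (474 cells), for cells with at least 1% endothelial markers (402 cells) and for cells meeting both conditions (385 cells). Single genes are given for all cells and for those of the other sets named beside them. The last 3 sets were chosen after these distributions had been seen. The 1% limit alone kept 4 and 13 cells above 4000 UMIs with metastases, and 0 and 0 in naive brains.

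**Figure D1:**
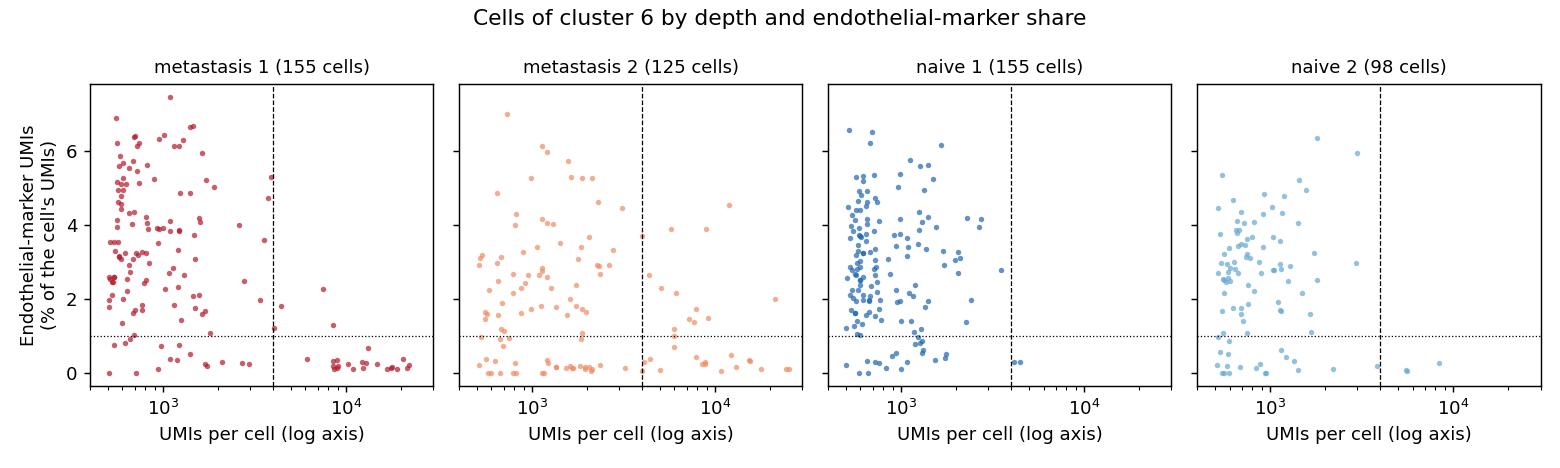
Each point is a cell of cluster 6, with its UMIs on a log axis and the percent of its UMIs that come from 27 endothelial markers; panels are the 4 brains. The dashed line is at 4000 UMIs and the dotted line at 1%. The 25 and 29 deep cells of metastasis 1 and 2 lie mostly below the dotted line, and naive 1 and 2 have 2 and 3.

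Over all cells of the cluster, the metastasis brains differed from the naive brains in 344 of 4539 genes tested. The test was edgeR's quasi-likelihood test on UMIs summed per brain, with TMM scaling and Benjamini-Hochberg adjustment at 0.05. It called 106 genes higher (2.34% of those tested) and 238 lower (5.24%). The number depended on which cells entered. Cells up to 4000 UMIs gave 23 higher (0.936%) and 1 lower (0.0407%) of 2458. Cells with at least 1% endothelial markers gave 2 higher (0.0841%) and 0 lower of 2379, with 311 genes at an unadjusted p under 0.05. Cells meeting both conditions gave 5 higher (0.278%) and 1 lower (0.0555%) of 1801. Thinning every cell to 500 UMIs, or keeping cells up to the median depth of their brain, gave 0 calls, with 90 and 44 genes at an unadjusted p under 0.05. Of the genes called over all cells, 6 were called in the same direction in cells up to 4000 UMIs: Apln, Ifit3, Iigp1, Nnat, Rarres2 and Tmem212. Among the 23 genes higher in cells up to 4000 UMIs were Tmem212, Ccdc153, Cfap126, Meig1, Fam183b and Tppp3, genes of ciliated cells, and Gfap, the astrocyte filament. Ependymal markers in those cells were 601 and 1525 CPM with metastases, against 90.7 and 66.3 CPM in naive brains. With both limits, 5 of the 6 ependymal markers were at 0 UMIs, and the calls were Apln, Iigp1, Ctla2a, Irf7 and Ifit1 (higher) and the metallothionein Mt1 (lower). The 2 calls with at least 1% endothelial markers alone were Apln and Tubb6. The one gene lower in cells up to 4000 UMIs was Ttr, the main secreted protein of choroid plexus. With 2 brains a condition, p-values measure the spread between these suspensions, since nothing but the hashing antibodies marks them as separate animals.

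Apelin, the peptide that tip cells release and that acts on the receptor Aplnr, was called in all 4 sets of cells. Apln had 32 and 53 UMIs in metastasis 1 and 2, against 0 and 0 in naive 1 and 2. Against a floor of 3 UMIs over the naive brains, it was at least 8.58-fold higher with metastases (edgeR adjusted p = 0.0141). With a limit of 4000 UMIs the counts were 14 and 10 against 0 and 0, at least 7.04-fold higher (edgeR adjusted p = 0.0131). In cells with at least 1% endothelial markers the edgeR adjusted p was 0.00131, and in cells meeting both conditions 0.0312. Apln UMIs were found in 6 of 155 cells (3.87%, exact 95% interval 1.43 to 8.23%) of metastasis 1 and in 16 of 125 cells (12.8%, 7.50 to 20%) of metastasis 2. In naive 1 and 2 they were in 0 of 155 and 0 of 98 cells, which allows up to 1.94% and 3.06% by the rule of 3 counts of the total (exact 95% upper ends 2.35% and 3.69%). Choroid plexus cluster 7, whose cells were deeper (median 2633.5 UMIs against 914), had no Apln UMI in any brain. After thinning to 500 UMIs a cell, 1.94% and 4% of cells with metastases kept an Apln UMI and none did in naive brains. The Apln call over all cells was lost without metastasis 2 (edgeR adjusted p = 0.196), with no filter on low counts (0.396) and among genes at least as high in cluster 6 as in other cells (0.0880). The call in cells up to 4000 UMIs was lost without naive 1 (edgeR adjusted p = 0.298) and without naive 2 (0.228). DESeq2 gave Apln no adjusted p over all cells and 0.146 in cells up to 4000 UMIs.

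The 22 cells with Apln were endothelial by their markers and unusually deep. Of them, 21 had at least 1% endothelial markers and 14 were above 4000 UMIs, so a limit on depth removes most of them. Their median depth was 5531.5 UMIs, against 1105.5 in the 258 other cells of the same brains. Angpt2, the angiopoietin that loosens vessels for sprouting, had UMIs in 11 of the 22 cells and in 11 of the 258 others. Col4a1, a basement membrane collagen, was at 1089 CPM in the 22 cells and at 138 CPM in the others. Igfbp3, an IGF-binding protein, was at 724 CPM and 160 CPM. The 22 cells were 6 from metastasis 1 and 16 from metastasis 2, and the others 149 and 109, so the comparison also mixes brains in different shares. The arterial gene Gkn3 was at 0 UMIs in the 22 cells and had 111 in the others. The venous genes Lrg1 and Ackr1 were at 487 and 294 CPM in the 22 cells, against 164 and 118 CPM in the others. These cells were picked by a gene, and the contrast is a description over cells with no test.

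Over the brains, the other members of the tip and angiogenic list were mostly not called. Of 19 tested members over all cells, 3 were higher (Apln, Fscn1 and Vim) and 2 lower (Flt1 and Ptn). Of all genes, 2.34% were higher and 5.24% lower. The median log2 fold change was 0.57 against 0.01 over all genes. In the other 3 sets of cells Apln was the single member called, of 11, 14 and 8 tested. Of all genes, 0.936%, 0.0841% and 0.278% were higher in those sets. Angpt2 had 8 and 29 UMIs with metastases and 0 and 0 in naive brains, at least 3.73-fold higher, and was too low to enter the test. Col4a1 had 82 and 170 UMIs with metastases against 24 and 14 in naive brains, without passing (log2 1.02, SE 0.38, edgeR adjusted p = 0.122).

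Of the type I interferon list, 2 of 23 tested members were called higher over all cells and none lower. The median log2 fold change of the 23 was 0.10. The count was 5 of 19 in cells up to 4000 UMIs and 2 of 16 with both limits. It was 0 of 15 with at least 1% endothelial markers, 0 of 9 in cells up to the median depth and 0 of 12 after thinning. Of all genes, 2.34% were higher over all cells, 0.936% in cells up to 4000 UMIs and 0.278% with both limits. Ifit3, an interferon-induced antiviral protein, had 45 and 63 UMIs in metastasis 1 and 2 against 5 and 5 in naive 1 and 2 over all cells. On the TMM scale it averaged 140 ± 33.0 CPM with metastases and 43.8 ± 10.9 CPM in naive brains (SD, n = 2 each; log2 1.70, SE 0.43, edgeR adjusted p = 0.0379). Iigp1, an interferon gamma-induced GTPase, had 24 and 23 UMIs with metastases and 2 and 0 in naive brains (edgeR adjusted p = 0.0480). Its ratio was 7.11, with a counting interval of 1.86 to 60.5. It was the 1 member called of 8 tested on the interferon gamma list over all cells. Of those 8, 6 had fold changes below 0, and the median was -0.23. In cells up to 4000 UMIs 2 of 4 were higher (Gbp2 and Iigp1). The count was 0 of 4 with at least 1% endothelial markers and 1 of 3 with both limits. Rnf213, an interferon-induced ubiquitin ligase, had 21 and 28 UMIs with metastases and 2 and 0 in naive brains. It stood at 61.7 CPM in clusters 0, 1, 3 and 4 of the metastasis brains, where Ifit3 was at 3.12 and Iigp1 at 0.559 CPM. Both calls were close to the threshold: that of Rnf213 was lost without metastasis 1 (edgeR adjusted p = 0.415), naive 2 (0.124), called doublets (0.0661) or cells over 10% mitochondrial UMIs (0.0502), and that of Iigp1 without naive 2 (0.145), doublets (0.0538) or those cells (0.0504).

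In cells up to 4000 UMIs, where those 5 members passed, the median log2 fold change was 1.10, against -0.01 over all genes. The 5 were Isg15, a ubiquitin-like modifier, Irf7, the factor that amplifies interferon production, Ifit1, Ifit3 and Ifitm3, a membrane protein that blocks virus entry. Ifit1 had 41 and 41 UMIs with metastases against 8 and 8 in naive brains (log2 2.17, SE 0.37, edgeR adjusted p = 0.00629). Irf7 had 48 and 42 UMIs with metastases against 10 and 7 in naive brains (log2 2.22, SE 0.36, edgeR adjusted p = 0.00550). Isg15 had 112 and 70 UMIs with metastases against 40 and 17 in naive brains (log2 1.53, SE 0.29, edgeR adjusted p = 0.00968). The conditions did not overlap for any of these genes, as for 38.4% of all genes tested in those cells. Without naive 2 the calls of Isg15 (edgeR adjusted p = 0.271) and Ifitm3 (0.601) were lost, and without naive 1 that of Ifit1 (0.0590). With both limits the 2 that passed were Irf7 and Ifit1 (edgeR adjusted p = 0.0312 each). Isg15 in that set gave log2 0.93 and an edgeR adjusted p of 0.352. DESeq2 on the cells up to 4000 UMIs called Nnat, Ifit3, Rarres2, Dbi and Mt3 higher and Ttr lower, and not Ifit1, Irf7 or Isg15. No member of the MHC class I list passed in any of the 4 sets, of 17, 17, 16 and 14 tested.

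**Figure D2:**
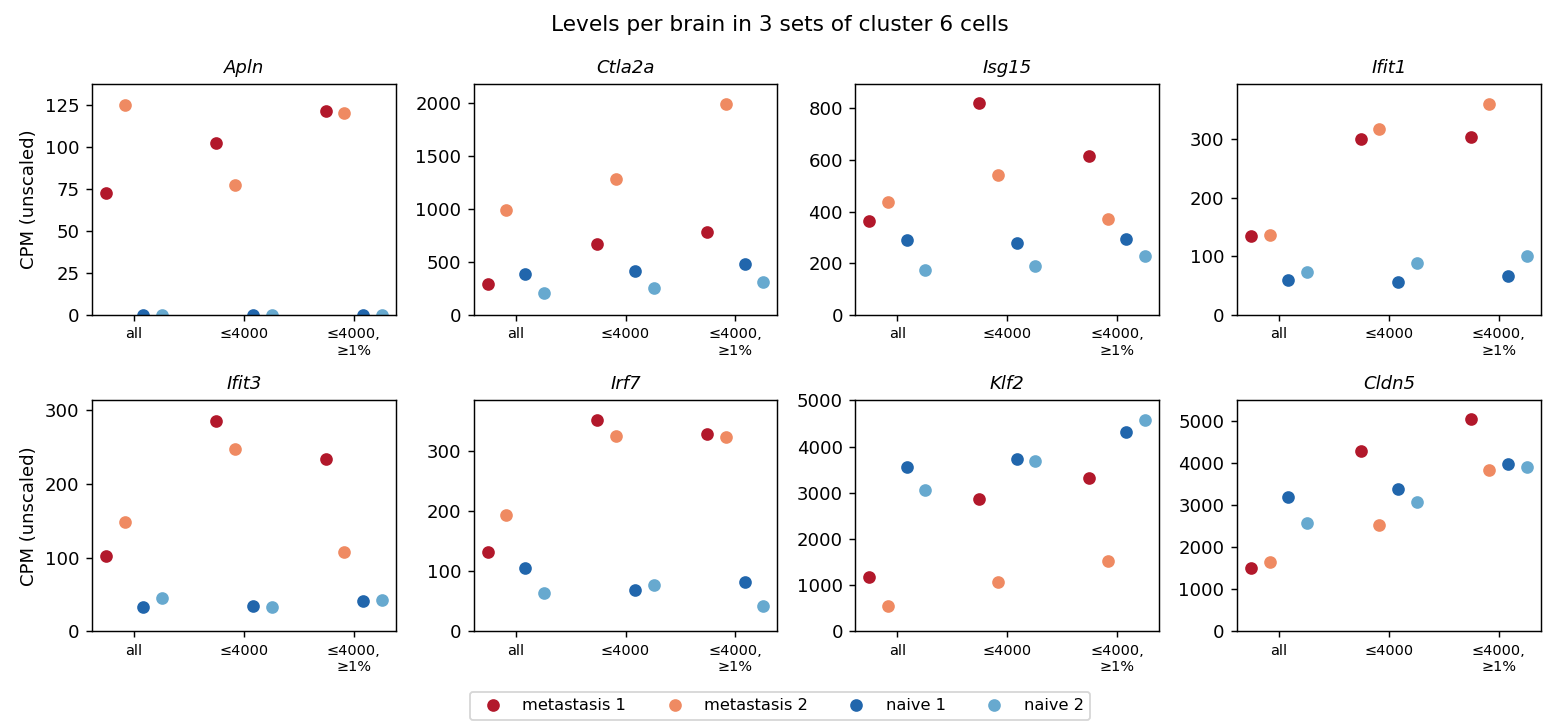
Unscaled CPM of 8 genes (linear axes) in the 4 brains, over all cells of cluster 6, cells up to 4000 UMIs, and cells up to 4000 UMIs with at least 1% endothelial markers; each point is a brain. Apln is at 0 in both naive brains in every set, while Cldn5 is lower with metastases over all cells and overlaps between conditions in the other sets.

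The interferon genes called in at least 1 set were looked up in RefSeq's promoter table (GRCm38.p6). Of 8 such genes, 7 had an entry, and the 250 bases before the gene start were searched on both strands. All were picked from interferon lists, so their motif shares against all promoters cannot bear on the metastasis calls. Uncalled members of those lists were not counted apart. The core of the element that interferon-activated factors bind, GAAA followed by any 2 bases and GAAA again, was in 4 of the 7 and in 2.98% of 32851 promoters. TTCNNNGAA, the interferon gamma-activated site, was in 0 of the 7 and in 7.02% of all, and the hypoxia element NCGTG in 2 of the 7 and in 55.4%. The 4 promoters shown are those that hold the first motif, which Irf7, Ifitm3 and Rnf213 lacked. All 7 genes were called higher with metastases in at least 1 set. Each sequence is written 5′ to 3′ on the gene's strand. Capitals mark matches on either strand, of which the 3 in Isg15 overlap.
Ifit3 (chr19:34583279-34583528, + strand): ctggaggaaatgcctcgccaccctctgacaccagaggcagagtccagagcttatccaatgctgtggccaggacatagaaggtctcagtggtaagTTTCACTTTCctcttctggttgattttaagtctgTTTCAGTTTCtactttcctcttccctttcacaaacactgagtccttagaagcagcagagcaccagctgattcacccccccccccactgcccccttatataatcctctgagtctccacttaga
Ifit1 (chr19:34640639-34640888, + strand): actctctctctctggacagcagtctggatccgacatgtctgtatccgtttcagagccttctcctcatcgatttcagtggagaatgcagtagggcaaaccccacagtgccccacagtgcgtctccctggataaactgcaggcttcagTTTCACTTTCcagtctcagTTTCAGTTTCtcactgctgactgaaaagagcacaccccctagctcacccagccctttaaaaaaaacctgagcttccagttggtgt
Isg15 (chr4:156200819-156201068, - strand): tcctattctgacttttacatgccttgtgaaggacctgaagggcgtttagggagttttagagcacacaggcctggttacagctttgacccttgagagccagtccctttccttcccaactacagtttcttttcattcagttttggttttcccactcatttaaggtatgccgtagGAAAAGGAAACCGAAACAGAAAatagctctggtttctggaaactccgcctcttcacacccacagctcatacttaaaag
Gbp2 (chr3:142620413-142620662, + strand): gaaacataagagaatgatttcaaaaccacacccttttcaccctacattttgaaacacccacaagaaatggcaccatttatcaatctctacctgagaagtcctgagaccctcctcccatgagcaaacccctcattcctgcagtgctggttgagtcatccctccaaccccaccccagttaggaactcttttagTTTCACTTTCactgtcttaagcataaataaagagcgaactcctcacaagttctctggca

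Genes of endothelial identity and of the barrier were lower with metastases over all cells, and none was called in the other sets. Of 25 tested pan-endothelial genes, 10 fell and none rose, with a median log2 fold change of -0.92. Of all genes tested over all cells, 5.24% were called lower and 2.34% higher. Cldn5 averaged 1772 ± 66.0 TMM-scaled CPM with metastases and 3233 ± 416 CPM in naive brains (SD, n = 2 each; log2 -0.87, SE 0.19, edgeR adjusted p = 0.0240). With the limit of 4000 UMIs Cldn5 had a log2 fold change of 0.09 (SE 0.23, edgeR adjusted p = 0.966), and none of 23 genes of the list was called. Junction genes gave 3 lower of 12 (Cldn5, Jam2 and Lsr) and barrier transport genes 7 lower of 24, among them Slc2a1, the glucose carrier. Slc2a1 had 104 and 147 UMIs with metastases against 103 and 60 in naive brains (log2 -1.07, SE 0.25, edgeR adjusted p = 0.0306), and log2 -0.23 (edgeR adjusted p = 0.885) in cells up to 4000 UMIs. Of the regulators that Wnt signals use to keep the barrier, 4 of 8 were lower over all cells (Lef1, Sox17, Foxf2 and Foxq1). The medians with at most 4000 UMIs, at least 1% endothelial markers and both limits were -0.02, -0.26 and 0.12 for pan-endothelial genes and -0.08, -0.06 and 0.10 for junctions. In the same order they were -0.29, -0.35 and -0.14 for transport and -0.29, -0.45 and -0.20 for Wnt regulators, whose fold changes were below 0 in 7 of 7, 7 of 7 and 4 of 5 members. A missed threshold does not show that these genes did not differ, and the 1% limit picks cells by endothelial genes and so partly sets their endothelial levels.

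Genes that answer flow and handling were also lower over all cells, where 5.24% of all genes tested were called lower. Of 9 tested genes of the flow list 5 were lower, with a median of -1.13, and the medians were -0.66, -0.90 and -0.60 in the other 3 sets, in which none was called. Klf2, a transcription factor that laminar flow induces, had 517 and 232 UMIs with metastases against 541 and 337 in naive brains. It averaged 970 ± 522 TMM-scaled CPM with metastases and 3693 ± 308 CPM in naive brains (log2 -1.93, SE 0.31, edgeR adjusted p = 0.0104). In cells up to 4000 UMIs the log2 fold change was -0.91 (SE 0.30, edgeR adjusted p = 0.278), and in each set plotted metastasis 2 was below metastasis 1. With at least 1% endothelial markers Klf2 gave -1.26 (edgeR adjusted p = 0.188), and the call held where markers of other cell types summed to no more than 2 UMIs in a cell (log2 -1.68, edgeR adjusted p = 0.0138). Klf4, its relative, gave log2 -2.16 over all cells (SE 0.29, edgeR adjusted p = 0.00756) and -1.09 in cells up to 4000 UMIs (edgeR adjusted p = 0.100). Of 28 immediate early genes, which tissue dissociation itself induces, 17 were lower over all cells, Fos and Jun among them, with a median of -1.27. With that limit on depth none of 26 was called and the median was -0.31. It was -0.73 with at least 1% endothelial markers and -0.33 with both limits, again with none called, and 24, 25 and 22 of the 26, 26 and 25 members were below 0 in the 3 sets.

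Of 106 genes higher over all cells, 20 were at least as high in cluster 6 of the metastasis brains as in their other cells. Of the 238 lower genes 232 were, and of all 4539 genes tested 2555 were. When only those 2555 genes were tested, 0 passed, with 596 at an unadjusted p under 0.05. This fit used the same cells and counts, with scaling and spread estimated anew on fewer genes. Klf2 was then at log2 -1.58 (edgeR adjusted p = 0.0973) and Apln at 7.88 (0.0880). The 0 therefore does not show that these genes did not differ. Of 77 ribosomal protein genes, 25 were higher and none lower over all cells, where 2.34% of all genes were higher. None of the 77 was called in the other 3 sets. The cell cycle list gave 3 higher of 18 over all cells (Top2a, Hmgb2 and Ube2c) and 0 of 7 in cells up to 4000 UMIs. Tubb6, a beta-tubulin, had 116 and 126 UMIs with metastases against 4 and 6 in naive brains (log2 2.85, SE 0.39, edgeR adjusted p = 0.00756). Tubb6 was at 263 and 297 CPM in cluster 6 with metastases, and at 253 CPM in clusters 0, 1, 3 and 4 of the same brains. In cells up to 4000 UMIs it did not pass (log2 1.67, edgeR adjusted p = 0.252). It passed with at least 1% endothelial markers (log2 3.27, edgeR adjusted p = 0.0159), a set that keeps deep cells. With both limits Tubb6 did not pass (log2 1.72, edgeR adjusted p = 0.366). Tmem212, a ventricular lining gene, had 17 and 82 UMIs with metastases and 0 and 0 in naive brains. No Tmem212 UMI was left in cells with at least 1% endothelial markers. Cdca3, a cell cycle gene, had 50 and 58 UMIs in metastasis 1 and 2, against 5 and 1 in naive 1 and 2, and 3 and 5 against 5 and 1 in cells up to 4000 UMIs. Fkbp5, a glucocorticoid-induced chaperone, had 28 and 30 UMIs in metastasis 1 and 2, against 2 and 0 in naive 1 and 2, and stood at 75.3 CPM in clusters 0, 1, 3 and 4 of the metastasis brains.

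Sema3c, a semaphorin, had 30 and 15 UMIs in metastasis 1 and 2, against 53 and 26 in naive 1 and 2 (log2 -2.49, SE 0.37, edgeR adjusted p = 0.00986), and gave log2 -1.06 (edgeR adjusted p = 0.278) in cells up to 4000 UMIs. Tmem100, a membrane protein that BMP signals induce in endothelium, had 11 and 6 UMIs in metastasis 1 and 2, against 22 and 11 in naive 1 and 2 (log2 -2.63, SE 0.46, edgeR adjusted p = 0.0141), and log2 -1.14 (edgeR adjusted p = 0.375) in cells up to 4000 UMIs. Enpp2, the enzyme autotaxin, had 28 and 14 UMIs in metastasis 1 and 2, against 31 and 44 in naive 1 and 2 (log2 -2.59, SE 0.42, edgeR adjusted p = 0.0113). Enpp2 is also a choroid plexus gene, and it was lower with metastases in cluster 7 too. There it stood at 4128 and 2233 CPM (unscaled) with metastases and at 9588 and 11581 CPM in naive brains (log2 -1.98, edgeR adjusted p = 0.00278). In cluster 7, 1008 of all 5963 genes tested were called lower. Enpp2 had a log2 fold change of -1.82 (edgeR adjusted p = 0.0509) in cells up to 4000 UMIs and of -0.22 (edgeR adjusted p = 0.949) with both limits. Ctla2a, a cathepsin inhibitor among the leading genes, went the other way in cells up to 4000 UMIs, with 91 and 166 UMIs in metastasis 1 and 2, against 59 and 23 in naive 1 and 2 (log2 1.55, SE 0.33, edgeR adjusted p = 0.0240). With both limits Ctla2a gave log2 1.76 (edgeR adjusted p = 0.0460), and over all cells 1.06 (edgeR adjusted p = 0.194).

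**Figure D3:**
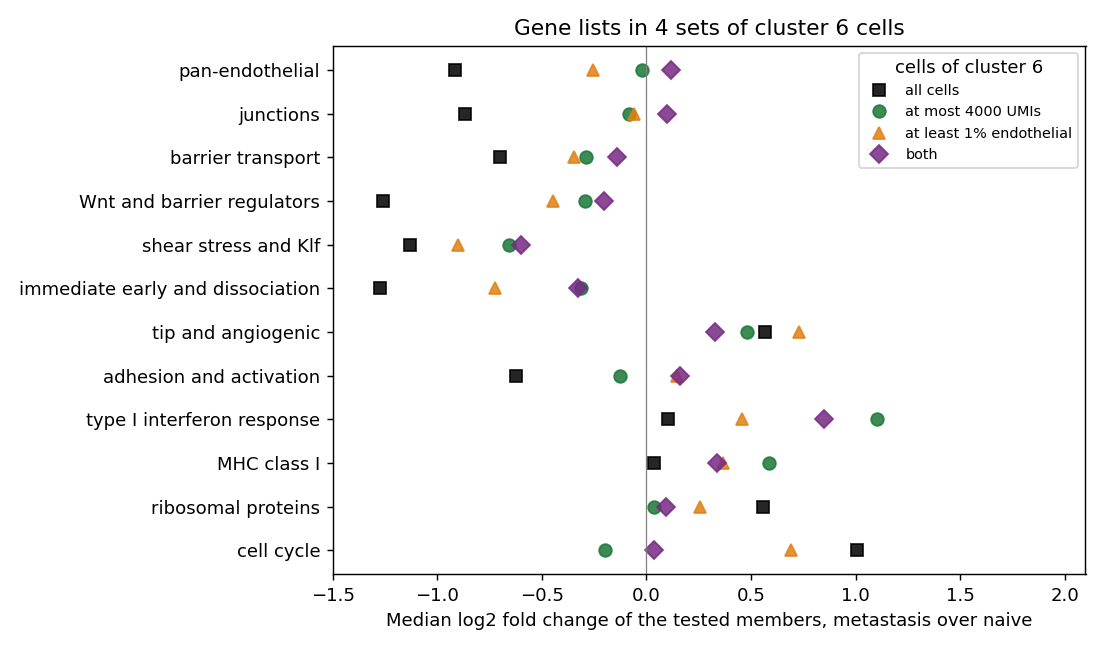
Median log2 fold change (metastasis over naive) of the tested members of 12 gene lists, in 4 sets of cluster 6 cells. Squares are all cells, where endothelial, barrier, flow and immediate early lists lie between -1.27 and -0.70; circles, triangles and diamonds are the other sets, where these lists lie closer to 0.

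Arterial, capillary, venous and fenestrated genes were all present. In the 385 cells up to 4000 UMIs with at least 1% endothelial markers, 227 held a UMI of 16 arterial genes and 181 a UMI of 14 venous genes. Both kinds were in 97 cells and neither in 74. Gkn3, expressed by brain arteries of the mouse, was in 70 cells, and none of them held a UMI of the venous genes Slc38a5 (33 cells), Ackr1 (19 cells) or Lrg1 (32 cells). Outside the Gkn3 cells these 3 genes were in 10.5%, 6.03% and 10.2% of cells. Vwf, another venous-list gene, was in 14 of the 70 Gkn3 cells (20%) and in 10.8% of the others. These counts pool brains that differ: the Gkn3 cells were 28 and 3 in metastasis 1 and 2 and 27 and 12 in naive 1 and 2, and the Lrg1 cells 6 and 20 against 6 and 0. Stmn2, a second gene on the arterial list, was in 40% of Gkn3 cells and in 13.7% of the others. Lrg1 was in 13 of the 19 Ackr1 cells. At these depths an absent UMI does not show that a cell lacks the transcript.

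The zone genes varied widely between brains of 1 condition. Gkn3 was at 814 and 144 CPM (unscaled, the same 385 cells) in metastasis 1 and 2, against 827 and 585 CPM in naive 1 and 2. Lrg1, a glycoprotein of activated veins, was at 156 and 744 CPM with metastases and at 172 and 0 CPM in naive brains. Ackr1, a chemokine-binding receptor of venules, was at 217 and 120 CPM with metastases and at 205 and 0 CPM in naive brains. For Gkn3 metastasis 2 stood low, for Lrg1 it stood high, and naive 2 had no UMI of Lrg1 or Ackr1. Plvap, the diaphragm protein of fenestrated and leaky vessels, was at 416 and 396 CPM with metastases and at 262 and 200 CPM in naive brains. The conditions did not overlap for Plvap in these cells, as for 37.6% of all genes tested there, and it did not pass in any set (edgeR adjusted p = 0.424 in these cells). Over all cells, where 2.34% of all genes were higher and 5.24% lower, the test called 4 of 14 arterial genes lower (Fbln5, Jag1, Edn1 and Stmn2) and 2 of 9 capillary genes lower (Spock2 and Car4). It also called 1 venous gene higher (Tmsb10) and 1 lower (Tshz2) of 13, and 2 of 8 fenestrated genes lower (Plpp1 and Plpp3). In cells up to 4000 UMIs 1 arterial-list gene, Clu, was higher and no other zone gene was called. With both limits none of 10 tested arterial genes was called, and no gene of the other zones was.

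**Figure D4:**
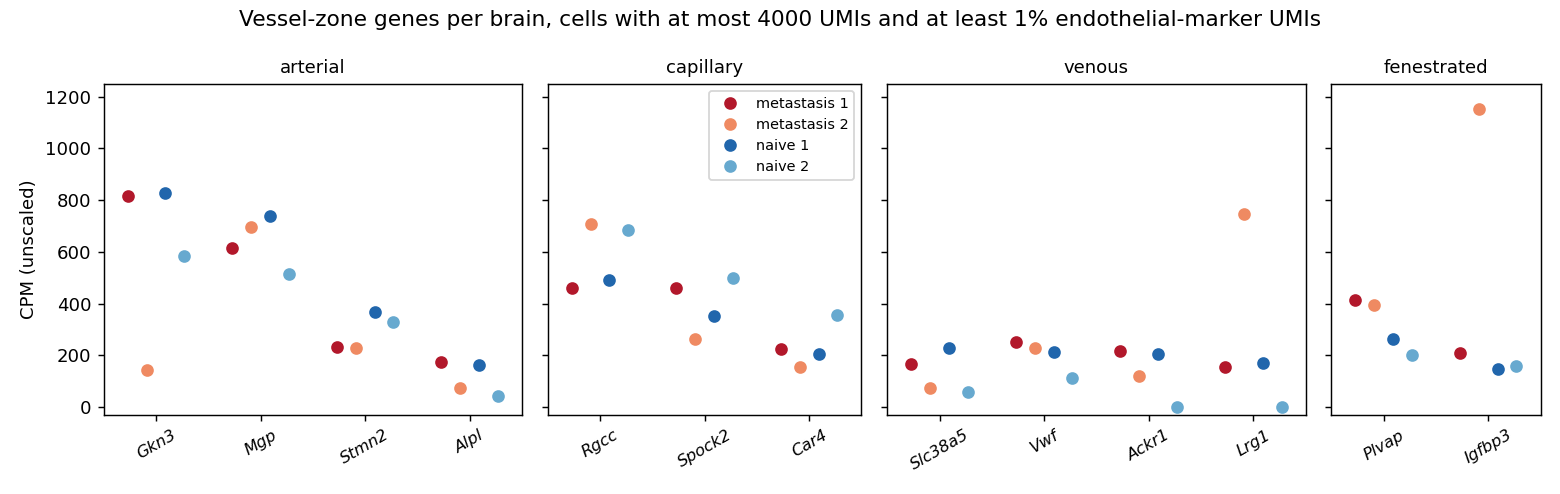
Unscaled CPM of 13 vessel-zone genes in the 4 brains, over cells up to 4000 UMIs with at least 1% endothelial markers; each point is a brain. Gkn3 is lowest in metastasis 2, at 144 CPM, and Ackr1 and Lrg1 are at 0 in naive 2.

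Whether the metastasis effect in cluster 6 differed from that in choroid plexus cluster 7 of the same suspensions was tested directly. With the brain as a block, the difference was higher for 149 genes (2.45%) and lower for 65 (1.07%) of 6092. Klf2 differed most clearly: it was lower with metastases in cluster 6 and higher in cluster 7, where its TMM-scaled level was 203 and 370 CPM with metastases against 71.2 and 71.8 CPM in naive brains. The difference was -3.97 (SE 0.44) on the log2 scale. Calls within cluster 7 alone were common, at 848 genes higher and 1008 lower of 5963 tested. Its cells above 4000 UMIs were 57 and 80 with metastases, against 5 and 5 in naive brains. Fos, unlike Klf2, was lower with metastases in cluster 7 as well (log2 -1.46, edgeR adjusted p = 0.00914). The difference of Fos between the clusters was -0.02. None of Isg15, Ifit1, Ifit3, Irf7 and Iigp1 passed, with differences of -0.12, -0.73, -0.06, 0.19 and 2.50. Within cluster 7 the log2 fold changes of Isg15, Ifit1, Ifit3 and Irf7 were 1.02, 2.01, 2.02 and 0.85, none of them called. Iigp1 did not enter the test there. Ifitm3 was called higher with metastases in cluster 7 (log2 1.34, edgeR adjusted p = 0.0145). The calls again depended on the cells. With cells of both clusters limited to 4000 UMIs, 3 genes were higher (Rarres2, Mt3 and Calml4) and none lower, of 2987, with 196 at an unadjusted p under 0.05. Klf2 was then at -1.53 (SE 0.62, edgeR adjusted p = 0.642) and Fos at -0.71 (edgeR adjusted p = 0.832).

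Cluster 6 made up a smaller share of the cells of the metastasis brains, whose suspensions held 5360 and 6174 cells, against 572 and 315 in naive brains. It was 2.89% (exact 95% interval 2.46 to 3.38%) and 2.02% (1.69 to 2.41%) of cells in metastasis 1 and 2. In naive 1 and 2 it was 27.1% (23.5 to 30.9%) and 31.1% (26.0 to 36.5%). An exact permutation test over brains (two-sided) reached p = 0.333, and 2 against 2 brains can go no lower. Among clusters 6, 7, 9 and 11 alone, the shares were 35.9% and 32.7% with metastases and 41.0% and 43.9% in naive brains.

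The cells carried few tags of immune surface proteins. CD45, the pan-leukocyte protein, averaged 1.19 and 4.82 tags per cell with metastases and 0.852 and 0.857 in naive brains. In cluster 12 the averages were 85 and 90.8 with metastases and 55.1 and 91.3 in naive brains. In metastasis 2, 5 cells of cluster 6 held over 20 CD45 tags, and 1 did in metastasis 1. No antibody passed the exact permutation test over brains (lowest p = 0.333, adjusted p = 0.5 over 6 antibodies).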

How the data were processed

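RNA and antibody tags were measured in 4 brains pooled in 1 library. The authors deposited unscaled UMI counts, whole numbers for each gene in each cell, and tag counts for each antibody. The submitters' processing notes list Cell Ranger 3.0.2, Seurat 3.0.1 and mm10; settings are not given in those notes. The authors' per-cell table gives the cluster number, the hashing call, the percent of mitochondrial UMIs and a hashing margin, a score of how clear the call was, as deposited. No cell was removed from the main comparison. UMIs of cluster 6 were 440893 and 424399 in metastasis 1 and 2, and 151938 and 110030 in naive 1 and 2. Intervals and limits cover counting error only.

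Counts were summed per brain and tested with edgeR 4.0.16 in R 4.3.3 (TMM, filterByExpr, condition as the only term); DESeq2 1.42.0 was an alternative. The comparison with cluster 7 had the brain as a block. Scripts were tested on simulated data. Doublets were called with Scrublet in scanpy 1.11.5 at an expected rate of 8%, 226 cells (1.82%), and were kept. Free RNA was not corrected. SE is that of the log2 fold change, from the quasi-likelihood F.

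The cluster, its markers and the gene lists were chosen with earlier results of these data known. Named genes are list members, the markers and leading genes, the 15 highest and 15 lowest called genes with at least 20 UMIs and no overlap between conditions (a selection of these is printed), and the 8 lowest p of the cluster 7 comparison. The limits of 4000 UMIs and 1% endothelial markers were set after the cells' distributions were seen; no other values of them were tried. No column of per-sample values was left unmapped. The design text speaks of 6 pooled samples, and 4 hashing antibodies are analysed here.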

Additional observations from a re-analysis of the deposited data

Results flagged for a closer look

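The metastasis effect differed between cluster 6 and choroid plexus cluster 7 most clearly, by the lowest p of the edgeR test of the difference itself, in 8 genes. On the log2 scale the difference was -3.97 for Klf2, 4.09 for Mt3 (a metallothionein), 5.66 for Rarres2 (chemerin), 8.94 for Calml4, 2.67 for Chchd10, -8.65 for Hbegf (a growth factor of the EGF family), 4.26 for Gm19935 and -2.82 for Slc6a6 (the taurine carrier). Hbegf was at 0 in both naive brains in cluster 7 and Calml4 in both naive brains in cluster 6, so the size of these 2 values depends on the prior count. With cells up to 4000 UMIs, Mt3 was at 3.40, Rarres2 at 7.08 and Calml4 at 7.02 and stayed past the threshold, while Klf2 at -1.53, Chchd10 at 2.43, Hbegf at -5.41, Gm19935 at 3.46 and Slc6a6 at -0.90 did not. Cells of cluster 6 with ependymal markers were 5 and 17 with metastases against 1 and 0 in naive brains. Rarres2 is itself on the ependymal marker list, so its link to these cells was set in advance. The 2 limits together keep none of these cells. Rarres2 then had 7 and 0 UMIs with metastases and 1 and 3 in naive brains. The part of the cells with ependymal markers in these differences, that of Mt3 included, was not tested.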

How the results depend on the processing

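For the genes called over all cells (106 higher, 238 lower), DESeq2 gave 62 and 110, and no filter on low counts gave 0 and 0, with 1428 genes at an unadjusted p under 0.05. Cells with no UMI of other types' markers gave 0 and 0 of 53 genes, 4 of them at an unadjusted p under 0.05. At most 2 such UMIs gave 5 and 1, thinning 0 and 0, cells up to the median depth 0 and 0, a hashing margin above the median 169 higher, and genes at least as high in cluster 6 as elsewhere 0 and 0. Of the settings added after seeing the data, at most 4000 UMIs gave 23 and 1, at least 1% endothelial markers 2 and 0, both together 5 and 1, and leaving out called doublets 46 and 131. RLE and TMMwsp scaling, a stricter filter and at most 10% mitochondrial UMIs stayed within 1.5 times. Leaving out 1 brain gave 25 to 126 higher and 26 to 265 lower, the fewest without metastasis 2.

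In cells up to 4000 UMIs, DESeq2 gave 5 and 1, and leaving out 1 brain gave 21 to 67 higher and 0 to 45 lower. With both limits, DESeq2 gave 0 and 0, and leaving out 1 brain gave 6 to 57 higher and 1 to 39 lower, so these counts move widely with single brains.

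For the difference from cluster 7 (149 higher, 65 lower), cluster 9 in its place gave 11 higher and cluster 11 gave 89 and 4. At most 4000 UMIs in both clusters gave 3 and 0, and adding the 1% limit in cluster 6 gave 0 and 1. With that set against all cells of cluster 7, the counts were 201 and 258. Leaving out 1 brain gave 11 to 137 higher and 18 to 105 lower.

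The share of cells kept its direction in all settings. Tags reversed on the scale of 100 tags for CD11b (-1.79), CD25 (-2.95), CD3e (-0.949), CD4 (-5.54) and CD86 (-3.86), for CD45 with medians (-0.50) and for CD25, which lay between -0.00968 and 0.0692 when 1 brain was left out and was below 0 without naive 2. Among cells up to the median depth Fos was at 0.0702, Egr1 at 0.94 and Ctla2a at -0.81, and Ttr was at 0.36 with at least 1% endothelial markers, each with its sign turned; the cause was not tested. No paired analysis was possible because the hashing antibodies give the conditions no shared replicate numbers. Low counts per gene limit the smaller sets of cells, in which fewer genes could be tested.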
